A study of Mus musculus with 9 samples.

Results

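Immortalized mouse macrophages (IMM) after 60 min of lipopolysaccharide (LPS) were compared with the same cells before LPS, over all genes of the deposited count table. The comparison used 6 of the 9 libraries of the series, chosen by their labels as the 60 min and the 0 min libraries, with 3 libraries per time. IMM are a macrophage line of WT genotype, with no transgene or deletion named in the labels, and LPS was given at 100 ng/mL. LPS is the outer-membrane glycolipid of Gram-negative bacteria. Total RNA was sequenced after removal of ribosomal RNA. The third time of the series, 30 min of the same LPS dose, also with 3 libraries, entered the fit to estimate the spread between libraries and counted in the filter on low counts. All libraries come from this line, the labels do not say whether it is a single clone, and the design text calls the 3 libraries of a time biological replicates. Libraries at 60 min without LPS were not among the samples, so LPS, handling and time cannot be told apart. In bulk RNA fewer cells with a transcript and less RNA per cell cannot be told apart either.

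The 6 libraries held between 26867428 and 30402308 counts. The first principal component of their log2 levels, with 72.5% of the variance, put the 0 min libraries between -26.3 and -24.2 and the 60 min libraries between 24.4 and 26.8. CPM, the unit of all levels here, are counts scaled to a common library total with edgeR's TMM factors. Macrophage markers were present at both times, as in Csf1r, which encodes the growth factor receptor macrophages depend on, with 566 ± 5.99 to 644 ± 14.6 CPM, and in the lysosomal membrane gene Laptm5, with 755 ± 34.7 to 756 ± 47.5 CPM (mean at 0 min to mean at 60 min, ± SD, n = 3). Of 10 T cell markers 8 fell below the filter on low counts, as did 8 of 8 B cell, 7 of 7 mast cell, 8 of 8 fibroblast and 7 of 7 epithelial markers. The summed T cell markers took 3.3 to 3.7 CPM at 0 min and 3.93 to 4.24 CPM at 60 min, and Cd3e, Cd3g, Cd8a and Cd8b1 had 0 counts in all 6 libraries. Cd5, a surface glycoprotein counted among them, rose from 0.21 ± 0.113 to 0.844 ± 0.275 CPM (edgeR adjusted p = 0.00201), and the part of other cells in this was not tested. Dendritic cell markers summed to 17.1 to 17.8 CPM at 0 min and 14.1 to 16 CPM at 60 min, with 3 of 9 tested and 2, Xcr1 and Zbtb46, lower. Both lost their call without 60 min replicate 1 or 3, Xcr1 also without 0 min replicate 2 or 3 and Zbtb46 without 0 min replicate 1. Endothelial markers (3 of 7 tested, 9.7 to 13.9 and 14.4 to 15.3 CPM) and neutrophil markers (2 of 10 tested, 6.01 to 7.55 and 6.03 to 6.75 CPM) had 0 called.

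Macrophages sense LPS through Tlr4 with its partners Ly96 and Cd14. The adaptors Myd88 and Ticam1 pass the signal to kinases that release the transcription factor NF-kB from its IkB inhibitors and that activate MAP kinases, which act on AP-1 factors of the Fos and Jun families. Among the first transcripts made are those of cytokines, chemokines and of the proteins that later shut the response down. Many of these transcripts carry AU-rich elements in their 3' UTR, the untranslated end of the mRNA, and are short-lived.

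Of 14246 genes tested, 1891 (13.3%) were higher and 1671 (11.7%) were lower at 60 min at a Benjamini-Hochberg adjusted p under 0.05 of edgeR's quasi-likelihood test, two-sided. In 97.2% of the called genes the 3 libraries of 1 time lay outside the range of the other time. Of all genes tested, called or not, 19.6% had every 60 min library above every 0 min library and 18.7% had the reverse. Most changes were small: the median log2 change was 0.38 among the higher and -0.35 among the lower genes. The upper tail was longer, since 432 genes (3.03%) were at least 2-fold higher and 178 (1.25%) at least 2-fold lower, and 175 against 13 reached 4-fold. At least 10-fold rises were found for 70 genes. Genes at least 2-fold higher took 0.576% ± 0.0133 of the scaled counts at 0 min and 2.22% ± 0.0345 at 60 min (SD, n = 3 per time). With library totals as the only scaling 1313 genes were higher and 3049 lower, so that 30.1% of the calls were higher instead of 53.1%, and the median of the log2 changes shifted from 0.00 to -0.07. Directions of small changes are therefore relative to the TMM scaling. Of the 302 called genes picked for naming, a set that favours large changes, 0 changed direction. This does not cover the other called genes.

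**Figure D1:**
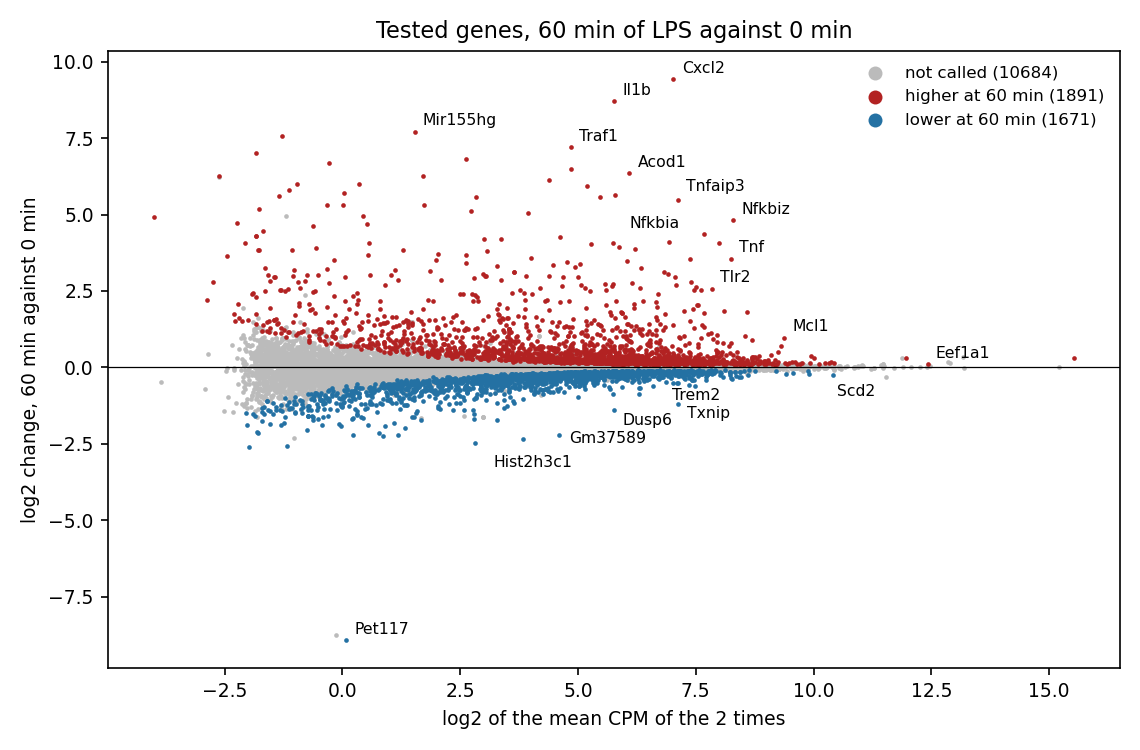
Log2 change at 60 min against 0 min (vertical axis) by the log2 of the mean CPM of both times (horizontal axis), 1 point per tested gene, red for the 1891 higher, blue for the 1671 lower and grey for the uncalled genes. The rises reach a log2 change of 9.44 (Cxcl2), while of the lower protein-coding genes above 5 CPM the farthest is Hist2h3c1 at -2.36; the blue point near -9 is Pet117, with 1.03, 5.27 and 0 CPM at 0 min and 0 CPM in all 3 libraries at 60 min.

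The largest rises among protein-coding genes above 5 CPM were those of a pair of secreted signals, Cxcl2 and Il1b. Cxcl2, a chemokine that attracts neutrophils, stood at 0.403, 0.387 and 0.325 CPM in the 3 libraries at 0 min and at 241, 277 and 261 CPM at 60 min. No 0 min library came near any 60 min library, a 694-fold rise (log2 change 9.44 ± 0.24 SE, adjusted p = 5.36e-12). Per kilobase of exon, Cxcl2 went from rank 13559 to rank 299 of the 14246 genes. Il1b, the precursor of interleukin-1 beta, went from 0.293, 0.141 and 0.325 CPM to 126, 90.8 and 108 CPM, 419.7-fold. Il1a, its paralogue, went from 1.65, 1.58 and 2.21 CPM to 92.8, 79.9 and 87.6 CPM. Neither gene had overlapping groups. Tnf, the cytokine tumour necrosis factor, was already well expressed at 0 min with 52.2, 46.5 and 43.8 CPM and reached 516, 582 and 581 CPM, 11.8-fold. Its gain of 512 CPM was the second largest of any protein-coding gene called. Per kilobase it moved from rank 1510 to rank 97.

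Of 31 listed cytokines and growth factors 21 passed the filter, and 15 of these were higher and 0 lower, with a median log2 change of 2.76 over the tested members against 0.00 over all genes tested. Since low genes pass the filter only if they are high at some time, this count does not describe all members: the other 10, among them Il12b (0 counts over the 0 min libraries and 8 over the 60 min libraries) and Il12a (0 and 0), were not tested. Several risers came from almost nothing. Il6, a cytokine of the acute phase, had 3 counts over the 3 libraries at 0 min and 219 in those taken after LPS (ratio 72.2, with 95% counting limits of 24.4 and 353). Csf3, granulocyte colony-stimulating factor, had 1 and 142 counts (ratio 140.0, limits 24.8 and 5590). These limits cover counting error only. Il10, the anti-inflammatory cytokine, rose from 0.105 ± 0.0617 to 2.78 ± 0.682 CPM (log2 change 4.68), and Lif, a cytokine of the interleukin-6 family, from 0.0456 ± 0.0168 to 1.99 ± 0.205 CPM. The interleukin-1 receptor antagonist Il1rn rose 6.01-fold from 5.2 ± 0.437 CPM, Osm 7.79-fold from 5.84 ± 0.771 CPM and the macrophage growth factor Csf1 5.85-fold from 14.2 ± 0.354 CPM. Hbegf (5.5 ± 0.405 to 5.53 ± 0.663 CPM) and Tgfb1 (186 ± 6.53 to 186 ± 7.99 CPM) are examples of members that were not called.

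Of 20 listed chemokines 11 were tested, and 10 were higher and 0 lower (median log2 change 1.53). Raising the minimum count from 10 to 50 left 6 higher. As with the cytokines, low members passed the filter only if they were high at some time. Cxcl10, which attracts T cells and is induced by interferon and NF-kB, rose from 1.72, 1.62 and 3.05 CPM to 117, 100.1 and 108 CPM, 50.2-fold. The groups were apart, with the highest 0 min library at 3.05 CPM. Ccl4 rose 5.46-fold and Ccl3 2.08-fold, but Ccl3 was far more abundant at the start (161 ± 11.6 CPM against 4.46 ± 0.511 CPM). Ccl2, the monocyte chemokine, rose 2.64-fold from 23.7 ± 2.39 CPM. Ccl6 (3.28 ± 0.506 to 3.39 ± 0.35 CPM) was the tested member without a call. The neutrophil chemokine Cxcl1 had 0 counts over the 0 min libraries and 3 over the 60 min libraries, and Cxcl3 0 and 18, both below the filter.

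**Figure D2:**
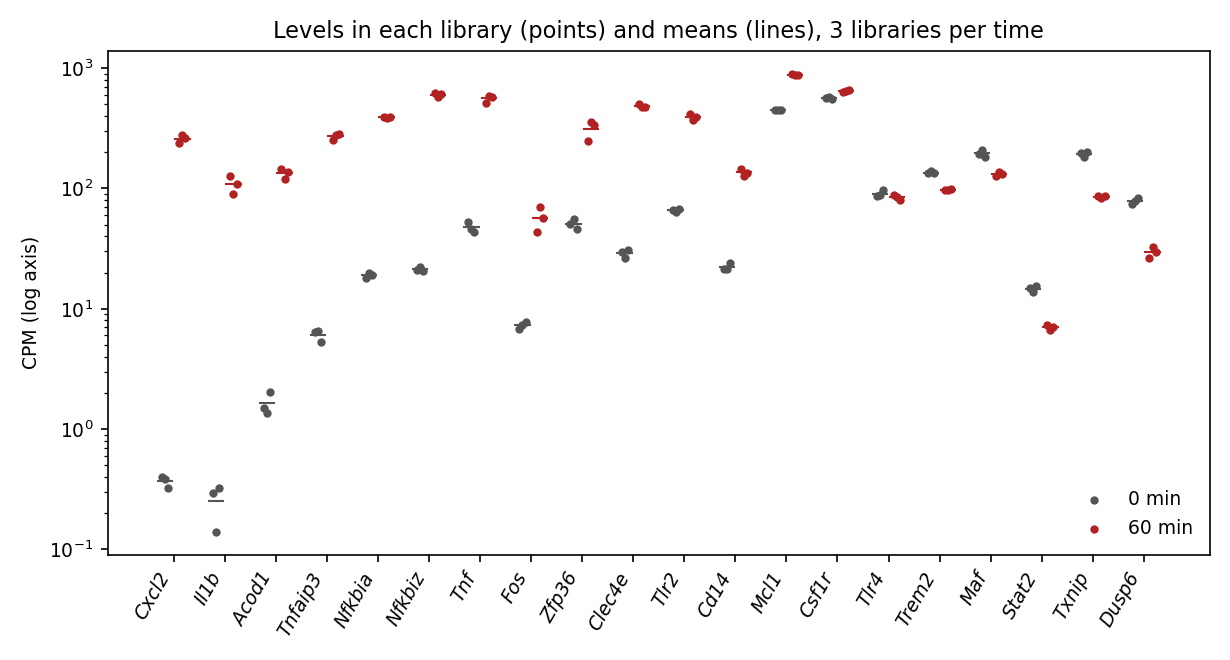
CPM on a log axis for 20 genes in each library at 0 min (grey) and 60 min (red), with lines at the means of 3 libraries. The points of the 2 times are separate for the rises from Cxcl2 to Mcl1 and for the falls from Trem2 to Dusp6, and overlap for Tlr4.

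On the receiving side the change was uneven. Of 18 members of the TLR4 complex and its adaptors 7 were higher and 3 lower (median log2 change 0.08). These are 38.9% and 16.7%, against 13.3% and 11.7% of all genes. Tlr4 itself had 86.4, 87.5 and 96.4 CPM at 0 min and 88.3, 84.2 and 80.8 CPM at 60 min, overlapping groups with no call (adjusted p = 0.154). Its co-receptor Cd14 went from 21.4, 21.5 and 24.1 CPM to 146, 127 and 135 CPM, a 6.09-fold rise with groups far apart. The kinase-like Irak2, which sustains signalling through Myd88, rose 2.77-fold, and Ticam1, the adaptor of the interferon branch, 1.37-fold. Cd180, an inhibitory Tlr4 homologue of macrophages and B cells, fell from 203, 203 and 179 CPM to 134, 144 and 164 CPM. The bridging adaptors Tirap and Ticam2 fell as well, each with a log2 change of -0.31. With library totals only, 6 members were lower instead of 3.

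Of 11 other Toll-like receptors 8 were tested. Tlr2, which senses bacterial lipopeptides, was the 1 member higher, from 65.8, 63.96 and 67.3 CPM to 413, 373 and 389.8 CPM (5.97-fold, adjusted p = 2.13e-11). Tlr1 (-0.31), which pairs with Tlr2, and the RNA sensors Tlr7 (-0.23) and Tlr8 (-0.46) were lower on the log2 scale. Among 32 kinases, TRAFs and ubiquitin ligases below Tlr4 10 were higher and 3 lower. Traf1, a signalling adaptor and itself a known NF-kB target, rose from 0.33, 0.141 and 0.649 CPM to 59.02, 55.6 and 56.3 CPM, a log2 change of 7.21, or 7.91 without 0 min replicate 3, its highest library at that time. Birc3, a ubiquitin ligase of the cIAP family, rose 4.1-fold, the kinase Map3k8, which drives ERK activation, 2.9-fold, and the kinase Ikbke 2.14-fold. The 3 lower members were Tab1, Rnf31 and Ikbkg, all above -0.35 in log2. Tab1, Rnf31 and Ikbkg all lost their call without 0 min replicate 3. The lower members of the whole list numbered 1, another gene, without that library. They numbered 5 without 60 min replicate 3 and 8 with library totals only.

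NF-kB is a dimer of Rel-family subunits, and 5 of 5 subunit genes were higher (median log2 change 1.24). Relb rose most, from 3.81, 3.65 and 4.41 CPM to 25.6, 21.9 and 22.03 CPM (5.83-fold). Nfkb2 rose 3.05-fold, Rel 2.36-fold from 66.4 ± 2.25 CPM and Nfkb1 1.97-fold from 95.8 ± 2.2 CPM. Rela, the main activating subunit, rose least, 1.34-fold, from 52.5, 44.6 and 46.3 CPM to 59.5, 64.4 and 68.3 CPM.

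In the list of NF-kB inhibitors and brakes, which also takes in atypical IkB genes, 10 of 12 were higher and 1 lower. The median log2 change was 1.97. Tnfaip3 (A20), a ubiquitin-editing enzyme that ends the signal, stood at 6.45, 6.5 and 5.26 CPM and reached 252, 277 and 284 CPM, 44.8-fold (adjusted p = 3.99e-11). Nfkbia, the classical IkB alpha, went from 18.04, 19.7 and 19.1 CPM to 392, 382 and 396 CPM, 20.6-fold. Nfkbiz, an atypical IkB that acts in the nucleus, went from 21.1, 22.4 and 20.6 CPM to 626, 572 and 608 CPM, 28.2-fold. Its gain of 581 CPM was the largest of any protein-coding gene called. In all of these the lowest 60 min library was more than 15 times the highest 0 min library. Nfkbie rose 16.3-fold, Tnip3, an A20-binding protein, 12-fold, and Bcl3 4.51-fold. Tnfaip8l2, a brake of a different family that macrophages hold at rest, was lower (log2 change -0.39). Otud7b (154 ± 5.08 to 151 ± 11.9 CPM) was not called.

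The promoters of 4 strong risers with an NF-kB consensus match in the 200 bases before the RefSeq start (GRCm38.p6) are printed here because the kind of match is what the comparison of windows below counts. Capitals mark matches to that consensus on either strand, and overlapping matches run together.
Cxcl2 promoter, chr5:90903699-90903898, plus strand: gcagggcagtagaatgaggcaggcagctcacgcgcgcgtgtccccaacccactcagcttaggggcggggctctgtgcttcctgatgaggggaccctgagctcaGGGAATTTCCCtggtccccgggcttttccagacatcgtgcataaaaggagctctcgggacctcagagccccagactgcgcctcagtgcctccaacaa
Cxcl10 promoter, chr5:92348890-92349089, minus strand: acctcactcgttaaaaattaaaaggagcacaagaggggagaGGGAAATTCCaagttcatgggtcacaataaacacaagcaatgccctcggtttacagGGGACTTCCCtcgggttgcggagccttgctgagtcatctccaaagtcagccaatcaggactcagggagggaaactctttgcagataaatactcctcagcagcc
Nfkbia promoter, chr12:55492648-55492847, minus strand: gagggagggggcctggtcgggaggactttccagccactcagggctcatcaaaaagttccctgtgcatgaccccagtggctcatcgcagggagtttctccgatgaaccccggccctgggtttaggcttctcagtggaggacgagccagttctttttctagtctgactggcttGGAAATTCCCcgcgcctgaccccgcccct
Tnfaip3 promoter, chr10:19015411-19015610, minus strand: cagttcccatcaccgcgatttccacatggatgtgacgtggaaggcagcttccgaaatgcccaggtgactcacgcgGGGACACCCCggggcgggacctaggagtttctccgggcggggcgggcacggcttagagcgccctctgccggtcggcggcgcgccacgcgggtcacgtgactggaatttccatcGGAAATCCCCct
In the 300-base windows that RefSeq starts give (250 bases before to 50 after), the NF-kB consensus was found in 8.41% of the 1617 windows of genes called higher, 3.75% of the 1359 windows of genes called lower and 5.12% of the 11545 windows of all tested protein-coding genes. Both strands were searched, and 80.8%, 82.2% and 80.3% of the genes had a window. The AP-1 motif TGANTCA was in 6.56%, 4.34% and 4.96% of these windows and the cAMP response element TGACGTCA in 4.95%, 2.21% and 3.17%. A match is a description of letters, not of binding. Genes at least 2-fold higher had a window in 77.1% of cases, a lower coverage than in these groups, and no share is given for them here.

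Early transcription factors rose almost throughout. Of 18 AP-1 and ATF genes 16 were tested, and 12 were higher and 0 lower (median log2 change 1.26). Fosb went from 0.844, 0.351 and 0.552 CPM to 41.2, 40.96 and 41.2 CPM, 70.6-fold. Fos had 6.82, 7.27 and 7.75 CPM at 0 min and 43.4, 69.8 and 57.3 CPM at 60 min. The 60 min libraries of Fos spread more than those of Fosb but stayed above every 0 min library (7.79-fold). Junb rose 7.0-fold from 41.96 ± 1.31 CPM, Fosl2 6.53-fold from 36.1 ± 0.816 CPM, Jun 2.61-fold from 109.8 ± 5.07 CPM and Atf3 2.31-fold from 31.7 ± 0.743 CPM. Creb1 (94.3 ± 3.06 to 101 ± 4.1 CPM) and Atf1 (121 ± 1.67 to 130.0 ± 7.63 CPM) were not called.

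Of 33 other immediate-early and early factors 32 were tested, and 28 were higher and 1, Klf3 (log2 change -0.34), lower. The median log2 change was 1.05. Low members such as Myc passed the filter only through their level after LPS, so part of this count is set by the filter. Id3, an inhibitor of basic helix-loop-helix factors, had 0.55, 2.39 and 0.617 CPM at 0 min and 75.6, 67.1 and 73.7 CPM at 60 min. Its 0 min replicate 2 lay above the others, and the log2 change of 5.93 was 6.94 without it. Id2 showed the same split at 0 min, with 4.14, 8.54 and 4.22 CPM, and reached 54.04, 54.8 and 57.05 CPM. The orphan nuclear receptors Nr4a3 and Nr4a2 rose 112-fold and 33.5-fold from under 1 CPM, and Nr4a1 2.51-fold from 16.1 ± 1.23 CPM. Maff rose 19.3-fold, Ier3, an early gene linked to survival, 11.2-fold and Csrnp1 10.8-fold. Egr2 rose 6.44-fold to 3.22 ± 0.356 CPM, while Egr1 had 0.293, 0.105 and 0.227 CPM and 0.0351, 0.509 and 0.679 CPM, overlapping and not called (adjusted p = 0.314). Myc had 0 counts over the 0 min libraries and 49 over the 60 min libraries. That is at least 16.2-fold higher against a floor of 3 counts over the group, yet only 0.559 ± 0.112 CPM.

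Factors of macrophage identity and of the interferon response went both ways. Of 30 C/EBP, IRF, STAT and lineage factors 13 were higher and 6 lower (median log2 change 0.06). Irf1 rose from 12.9, 11.5 and 12.98 CPM to 88.1, 77.8 and 80.7 CPM, 6.58-fold, and Cebpb, a factor of inflammatory macrophage genes, 2.46-fold from 102 ± 4.64 CPM. Nfe2l2, the regulator of the antioxidant response, rose 1.85-fold and the repressor Zeb2 1.64-fold from 484 ± 28.8 CPM. Stat2, which carries interferon signals, fell from 14.8, 13.7 and 15.4 CPM to 7.33, 6.68 and 7.03 CPM, a 2.09-fold fall with no overlap. Maf, a factor of resting macrophages, fell from 194, 210.4 and 184 CPM to 126, 138 and 132 CPM. Cebpd (-0.57), Irf2 (-0.31), Irf8 (-0.29) and Stat5a (-0.21) were the other lower members on the log2 scale.

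Ifnb1, the first interferon that macrophages make after LPS, had 0 counts over the 0 min libraries and 4 over the 60 min libraries. Of 39 listed interferon and interferon-stimulated genes 30 were tested. Of these 2 were higher (6.67%, against 13.3% of all genes) and 5 lower (16.7%, against 11.7%). Untested members are not described by this count. Among them Gbp2 had 8 counts over the 0 min libraries and 40 over the 60 min libraries, and Isg15 had 30 and 26. Rsad2, an antiviral enzyme, rose from 3.37, 2.74 and 3.05 CPM to 6.84, 7.87 and 7.06 CPM (2.38-fold). The other higher member, Ifi204 (0.28), lost its call when any of 0 min replicate 2 and 60 min replicates 1 and 3 was left out. Trim21, a cytosolic antibody receptor, fell (log2 change -0.54). The number of lower members fell to 2 without 0 min replicate 3 or 60 min replicate 2 and to 3 without any of the other libraries but 0 min replicate 2.

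Feedback genes beyond NF-kB formed several groups. Dual-specificity phosphatases switch MAP kinases off. Of 25 DUSP and ERK feedback genes 23 were tested, and 11 were higher and 2 lower (median log2 change 0.24). Dusp1 went from 6.09, 5.94 and 6.04 CPM to 88.1, 111 and 102 CPM, 16.7-fold, Dusp5 13.97-fold to 15.7 ± 0.276 CPM and Dusp2 5.59-fold to 64.4 ± 3.62 CPM. Dusp8 rose 39.3-fold, but only to 6.52 ± 0.914 CPM. It passed the filter only through its level after LPS, so the count of this list does not describe all members. Dusp4 was more abundant at the start and rose 2.87-fold from 85.6 ± 5.7 CPM. Dusp6, the phosphatase selective for ERK, went the other way, from 74.3, 78.3 and 83.1 CPM to 26.6, 32.5 and 29.7 CPM, a 2.65-fold fall (adjusted p = 1.55e-09). Dusp7, also selective for ERK, fell 1.54-fold from 118 ± 9.53 CPM. Both phosphatases had groups that did not overlap.

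Of 22 genes of mRNA decay and translation control 21 were tested, and 10 were higher and 1, Cnot4, lower (median log2 change 0.11). Cnot4 lost its call without any of 0 min replicates 1 and 2 and 60 min replicates 1 and 2. Zfp36 (tristetraprolin), which binds AU-rich elements and speeds mRNA decay, rose from 50.9, 55.5 and 45.7 CPM to 249.6, 357 and 334 CPM. Replicate 1 was the lowest of the 60 min libraries and still over 4 times any 0 min library. Zc3h12a (regnase-1), an endonuclease that cuts inflammatory mRNAs, rose 6.06-fold, its relative Zc3h12c 3.16-fold and the antiproliferative Btg2 10.4-fold. Of 13 SOCS and other brakes of cytokine signalling 6 were higher and 1 lower. Socs3, which blocks signalling of interleukin-6 family receptors, went from 8.88, 9.03 and 10.2 CPM to 136, 139.9 and 138 CPM (14.7-fold). Cish rose 9.14-fold and Socs1 3.92-fold, both to under 5 CPM. With library totals only, 3 members were higher and 3 lower.

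AU-rich sites of the kind that Zfp36 binds were present in several of the strongest risers. The stretches of at most 30 bases with the most copies of ATTTA (T stands for U of the mRNA) in the 3' UTR are printed for 3 of them because they show how densely the pentamers stand. They come from GENCODE M21 transcripts on GRCm38, with ATTTA in capitals.
Tnf site, chr17:35199679-35199705, minus strand: ATTTAttATTTATTTAttATTTATTTA
Cxcl2 site, chr5:90905328-90905356, plus strand: ATTTATTTAtctatgtATTTATTTATTTA
Ptgs2 site, chr1:150105798-150105823, plus strand: ATTTATTTATTTAtgtgaagaATTTA
The whole 3' UTR held 8 copies in Tnf (764 bases), 11 in Cxcl2 (734) and 14 in Ptgs2 (2445), the highest numbers of the risers looked at. The others held fewer: Il6 6 (427 bases), Ier3 5 (613), Il1b 4 (459) and Zfp36 3 (774). Dusp6 held 1 (1189 bases) and Txnip 0 (1354), both of which fell. Over all genes, those at least 2-fold higher carried 2.39 ATTTA per kb of 3' UTR, those at least 1.5-fold lower 1.34 and all tested protein-coding genes 1.81. The longer core TATTTAT was found in the 3' UTR of 42.3% of the 284 protein-coding genes at least 2-fold higher, 20.2% of the 194 at least 1.5-fold lower and 26.5% of all 11313. Their median 3' UTR lengths were 978, 1054 and 930 bases. These strongly changed genes were also compact: the median gene spanned 15.3 kb with 6 exon blocks among those at least 2-fold higher and 12.7 kb with 5 among those at least 1.5-fold lower, against 23.3 kb with 10. Over all genes called higher, most of them with small changes, the median was 25.8 kb with 10 blocks, and over all called lower 19.8 kb with 8. Their median 0 min level was 5.76 and 5.16 CPM against 30.2 CPM, and the part of level in these differences was not tested. Among tested protein-coding genes over 100 kb 15.1% were higher and 6.07% lower, against 13.6% and 11.4% of all tested protein-coding genes. Genes of 25 to 50 kb had nearly the same higher share, so that share was not particular to the longest genes.

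**Figure D3:**
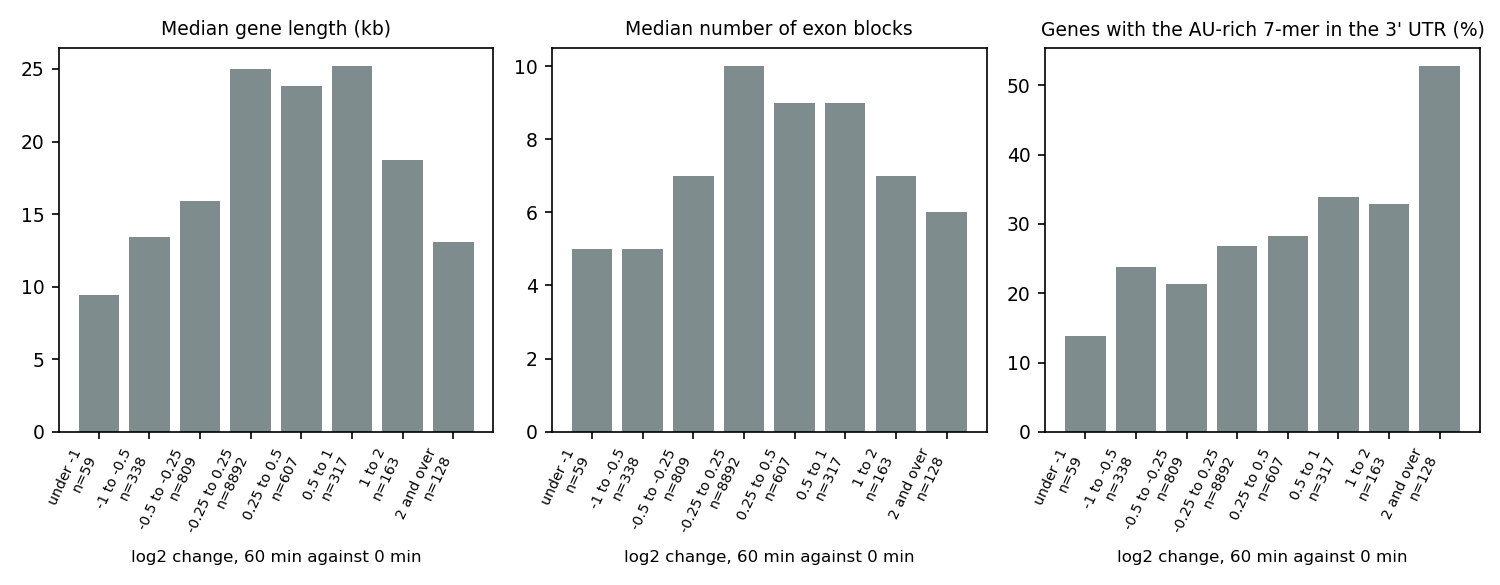
Median gene length in kb, median number of merged exon blocks, and percent of genes with TATTTAT in the 3' UTR, for tested protein-coding genes in bins of log2 change, with the number of genes under each bar. Genes near 0 have 10 exon blocks and both ends are shorter (9.41 kb and 13.1 kb), while the AU-rich share runs from 13.8% at the lower end to 52.8% at the upper end. The median 3' UTR had 600 bases at the lower end, 930 in the bin around 0 and 995 at the upper end. The part of 3' UTR length in the share was not tested.

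Effector and surface genes followed the cytokines. Of 33 inflammatory effectors 27 were tested, and 20 were higher and 1, Ptgs1 (-0.17), lower (median log2 change 1.54). Here too low genes pass the filter only if they are high at some time, so the count does not describe all members. Acod1, which makes the antimicrobial metabolite itaconate, went from 1.5, 1.37 and 2.04 CPM to 146, 119.8 and 138 CPM, 81.2-fold. Ptgs2, the inducible cyclooxygenase of prostaglandin synthesis, went from 6.71, 9.17 and 5.81 CPM to 118, 108 and 106 CPM, 15.3-fold, while the constitutive Ptgs1 fell from 103 ± 4.25 to 91.1 ± 3.6 CPM. Nos2, the inducible nitric oxide synthase, was at 1.62 ± 0.463 CPM at 60 min, 11.3-fold over 0 min. Thbs1 (thrombospondin 1) rose 47.6-fold and the acute-phase gene Saa3 34.7-fold, each to between 10 and 20 CPM. Sod2, the mitochondrial superoxide dismutase, rose 2.19-fold from 143 ± 11.8 CPM.

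Of 27 activation surface molecules 22 were tested, and 18 were higher and 0 lower (median log2 change 1.11). Low members pass the filter only if they are high at some time, so this count does not describe all members. Sele, with 2 counts over the 0 min libraries and 22 over the 60 min libraries, was not tested. Clec4e (Mincle), a receptor for mycobacterial glycolipid, went from 29.8, 26.4 and 30.7 CPM to 501, 474 and 473 CPM, 16.6-fold. The costimulatory molecule Cd40 rose 10.1-fold, Cd83 8.64-fold and the adhesion molecule Icam1 4.42-fold from 37.3 ± 2.02 CPM. Cd69, an early activation marker, had 0.0367, 0.176 and 0.0324 CPM and 7.5, 5.56 and 6.41 CPM; its log2 change of 6.25 was 7.39 without 0 min replicate 2. Cd53 (289 ± 5.37 to 300.2 ± 0.383 CPM) was not called. Tumour necrosis factor receptor Tnfrsf1b rose 2.07-fold, whereas the other receptor of the cytokine, Tnfrsf1a, fell (log2 change -0.19). In the list of 25 cytokine receptors 14 were higher and 3 lower. The decoy receptor Il1r2 rose 14.99-fold but only to 1.27 ± 0.295 CPM. The interleukin-6 receptor chains Il6ra (-0.37) and Il6st (-0.24) were the remaining lower members on the log2 scale.

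Among 18 chemoattractant receptors 10 were tested, and 4 were higher and 0 lower. Ccrl2, an atypical receptor that presents chemerin, rose from 0.844, 0.597 and 0.454 CPM to 59.7, 52.7 and 58.6 CPM, 90.6-fold. The complement receptor C5ar1 rose 1.93-fold from 133 ± 6.58 CPM. Of 35 G-protein-coupled receptors for small mediators and RGS proteins 30 were tested, with 11 higher and 9 lower (median log2 change 0.03). That is 36.7% and 30.0%, where 13.3% and 11.7% of all genes were called. The platelet-activating factor receptor Ptafr rose 2.75-fold, the adenosine receptor Adora2b 2.48-fold and the prostaglandin E2 receptor Ptger4 2.27-fold. The oxysterol receptor Gpr183 (-0.62), the ADP receptor P2ry1 (-0.68), Rgs2 (-0.56) and Rgs3 (-0.52) fell on the log2 scale.

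Of 36 homeostatic and scavenger receptors 32 were tested, and 7 were higher and 2 lower, with a median log2 change of 0.03. The shares were 21.9% and 6.25%, against 13.3% and 11.7% of all genes. Trem2, a lipid-sensing receptor of resting macrophages, fell from 134, 139 and 134 CPM to 97.3, 97.1 and 99.2 CPM. The fall was 1.38-fold, and the groups were tight and far from overlapping. The Fc receptor Fcgr1 was the other lower member (log2 change -0.18), and the scavenger receptor Stab1 was the farthest of the higher ones (0.69). The number of lower members was 4 without 60 min replicate 3 or without a filter on low counts and 7 with library totals only. Gpnmb (1919 ± 99.7 to 2000.0 ± 110.2 CPM) and Itga4 (508 ± 27.3 to 517 ± 21.1 CPM) were not called.

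Cell survival and stress regulators were mostly higher where they changed. Of 35 survival and death genes 33 were tested, with 13 higher and 1, the pro-apoptotic Bmf (-0.61), lower. Mefv, with 1 count over the 0 min libraries and 89 over the 60 min libraries, passed the filter only through its level after LPS. The count therefore does not describe all members. Mcl1, an anti-apoptotic BCL2 protein of high abundance, went from 445, 451 and 449 CPM to 900.5, 876 and 870.5 CPM (1.97-fold). Cflar, which blocks caspase-8, rose 4.07-fold, and the pro-apoptotic Bcl2l11 (Bim) rose 4.08-fold. Nlrp3, the inflammasome sensor whose expression is a priming step, rose from 30.2, 30.6 and 30.7 CPM to 243, 227 and 241 CPM. The lower members numbered 3 without 0 min replicate 2 or 3, 2 without 60 min replicate 3 and 7 with library totals only. Of 34 stress, arrest and kinase regulators 22 were higher and 3 lower (median log2 change 0.56). The kinase Pim1 rose 11.8-fold, Plk2 8.29-fold, the cell cycle inhibitor Cdkn1a (p21) 6.41-fold and Gadd45a 8.36-fold. Sesn1 fell (-0.51).

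Of 43 regulators of small GTPases 42 were tested, with 16 higher and 7 lower. Gem rose to 2.63 ± 0.271 CPM, 30.9-fold, and Rasgef1b, abundant at 58.2 ± 1.87 CPM, 5.75-fold. Gem passed the filter only through its level after LPS. Rab11fip1 rose 4.54-fold and Rab20 4.43-fold. Fgd4 fell from 164 ± 9.0 to 114 ± 4.37 CPM and Rhoh from 1.34 ± 0.45 to 0.504 ± 0.144 CPM. Among 27 phosphodiesterases and phosphoinositide enzymes 6 were higher (22.2%, against 13.3% of all genes) and 5 lower (18.5%, against 11.7%). Pde4b, which degrades cAMP, stood alone, from 13.97, 12.4 and 14.5 CPM to 240.3, 217 and 238 CPM (16.98-fold). The next rise was Pde7b at 2.13-fold, and 3 members were lower without 60 min replicate 1.

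In metabolic and cell cycle lists few changes reached 2-fold. Of 27 glycolysis and hypoxia genes 11 were higher and 1 lower (median log2 change 0.12). The hexose transporters Slc2a6 and Slc2a1 rose 2.33-fold and 1.53-fold, while Gapdh (2421 ± 103 to 2351 ± 104 CPM) and Pkm (1866 ± 68.6 to 1887 ± 27.99 CPM) were not called. The number of higher members was 7 without 0 min replicate 1 or 2 or 60 min replicate 1 or 2, and 6 with library totals only. In cholesterol and lipid metabolism 7 of 24 tested were higher (29.2%, against 13.3% of all genes) and 4 lower (16.7%, against 11.7%). Abca1, the cholesterol exporter, rose 2.05-fold from 246 ± 7.33 CPM. Scd2, a fatty acid desaturase, fell from 1476, 1440.0 and 1485 CPM to 1198, 1245 and 1271 CPM, the largest loss in CPM of any protein-coding gene called, and Lpl, lipoprotein lipase, from 1025 ± 100.3 to 879 ± 16.4 CPM. Of 26 DNA replication genes 5 were higher (19.2%, against 13.3% of all genes) and 3 lower (11.5%, against 11.7%). All lay within 0.21 of 0 on the log2 scale, and 3 were higher without 0 min replicate 3 or 60 min replicate 1. Of 25 mitosis genes 0 were higher and 6 lower (24.0%, against 11.7% of all genes), Plk1 being the farthest (log2 change -0.22). At an unadjusted p under 0.05, 10 mitosis genes in all passed. With library totals only 13 were lower, and 1 was higher without 60 min replicate 3. Mki67 (1468 ± 55.6 to 1500.0 ± 52.7 CPM) was not called.

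**Figure D4:**
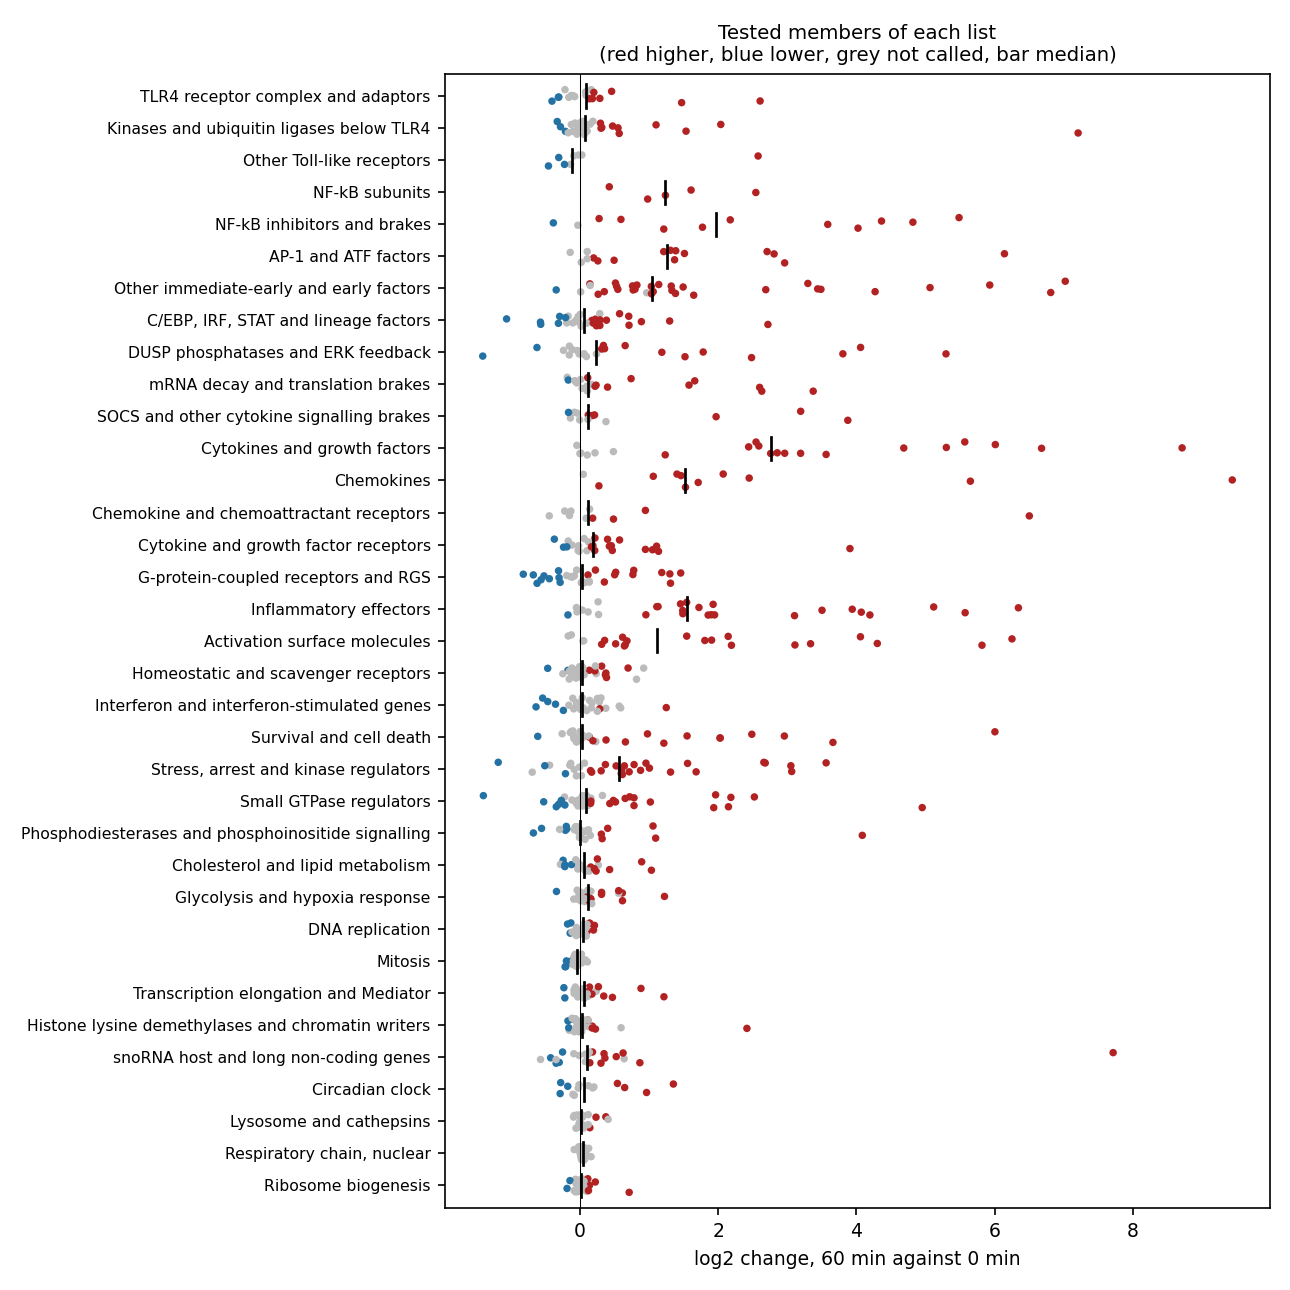
Log2 change at 60 min against 0 min of the tested members of each list, 1 point per gene, red for higher, blue for lower and grey for uncalled genes, with a black bar at the median. Cytokines (median 2.76), NF-kB inhibitors (1.97), effectors (1.54) and chemokines (1.53) lie farthest to the right. In cytokines, effectors, chemokines, activation surface molecules and early factors some members passed the filter only through their level after LPS. The same holds for the DUSP, survival, small GTPase and long non-coding lists. The medians of these lists therefore do not describe all listed members. The respiratory chain and mitosis lists stay within 0.25 of 0.

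Lower protein-coding genes were fewer and changed less. The best expressed of those at least 2-fold lower was Txnip, followed by Dusp6. Txnip, which binds thioredoxin and limits glucose uptake, fell from 198, 184 and 201 CPM to 86.5, 84 and 86.1 CPM (2.27-fold, adjusted p = 8.01e-09). Hhex, a homeobox repressor, fell from 40.7, 45.3 and 40.2 CPM to 21.5, 22.4 and 20.97 CPM (1.95-fold). Osgin1, Cd300lb, Tor4a and Bsn fell between 1.77 and 1.82-fold, each from above 20 CPM. Gpr146 fell 2.05-fold and the cannabinoid receptor Cnr2 1.83-fold, both from below 10 CPM. In these genes as well the groups did not overlap.

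In 4 gene families lower calls outnumbered higher ones, where 11.7% of all genes tested were lower and 13.3% higher. Of 38 tested Trim genes 12 were lower (31.6%) and 1 higher (2.63%), and of 21 tested Klhl genes 7 were lower (33.3%) and 1 higher (4.76%). Of 320 tested Zfp-named zinc finger genes, a class that holds many transcriptional repressors, 128 were lower (40.0%) and 27 higher (8.44%). Their median log2 change was -0.19, and 17 were higher without 60 min replicate 2. Zfp157 fell from 14.6, 15.4 and 16.6 CPM to 8.35, 7.49 and 7.91 CPM, Zfp39 1.86-fold and Zfp324 1.82-fold. Zfp36 carries the name but is the AU-rich binding protein described above. Of 63 tested protein-coding histone genes 31 were lower (49.2%) and 0 higher (median -0.17), and 19 were lower without 60 min replicate 1. By the same test 34 passed an unadjusted p under 0.05. Hist2h3c1 fell from 22.4, 24.5 and 24.3 CPM to 3.65, 4.95 and 5.26 CPM, while Hist2h2bb and Hist2h3b, of the same cluster by name, had log2 changes of -0.35 and -0.33. Histone genes are near-identical copies, and the expected counts divide shared reads among them, so single members are uncertain. These families were singled out after their values were seen.

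Loci without a protein made up 148 of the 432 genes at least 2-fold higher and 129 of the 178 at least 2-fold lower, against 2933 of all 14246 tested. The 432 and the 178 genes had low median 0 min levels, 2.25 and 1.42 CPM. At a minimum count of 50 the 178 became 76, and the part of low counts was not tested. Among the higher loci Mir155hg, the host transcript of a microRNA known for promoting inflammatory signalling of macrophages, had 2 counts over the 0 min libraries and 504 over the 60 min libraries (ratio 249, with 95% counting limits of 68.7 and 2060). At 60 min it stood at 5.89, 5.66 and 5.74 CPM. The arm that is mostly used is printed with its seed, bases 2 to 8, in capitals, since the seed sets the targets. The mature miRNA was not measured.
mmu-miR-155-5p, chr16:84714143-84714165 (GRCm38.p6), plus strand: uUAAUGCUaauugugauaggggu
Other rises of loci without a protein that reached at least 5 CPM included those of E230013L22Rik (from 0.628 ± 0.187 to 7.28 ± 0.258 CPM) and of the class I MHC pseudogenes H2-K2 and H2-Q5 (8.66-fold and 8.88-fold). H2-Q6 and H2-Q7, non-classical MHC genes nearby, had folds of 16.9 and 12.6. Reads of these similar genes can be split among them, and their single values are uncertain.

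Many such loci lie inside introns of protein-coding genes on the same strand without touching an exon. This was so for 68 of the 148 higher (45.9%), 65 of the 129 lower (50.4%) and 37.9% of all 2933 tested loci without a protein. Some hosts hold several loci, so hosts were counted once each. Of 53 tested hosts of the higher loci 40 were higher and 0 lower. Of 58 tested hosts of the lower loci 16 were lower, 2 higher and 40 not called. Over the 748 tested hosts of all intronic loci 19.0% were higher and 8.69% lower. Gm37589, at chr3:60535751-60539744 (GRCm38) in an intron of the splicing factor gene Mbnl1, fell from 35.5, 44.4 and 39.04 CPM to 9.57, 8.65 and 7.7 CPM. Its host fell from 798 ± 44.5 to 706 ± 18.2 CPM, a log2 change of -0.18 against -2.20 for the locus. Gm37488, in the same host, fell from 14.8 ± 1.25 to 4.51 ± 1.93 CPM. Gm45191, at chr7:122313064-122318502, fell 3.96-fold inside Prkcb, whose own level was 14.4 ± 1.4 to 14.5 ± 0.57 CPM and not called. Gm44951, at chr7:80036705-80038728 inside Zfp710, fell from 12.2, 11.7 and 11.9 CPM to 2.31, 2.27 and 1.8 CPM, and its host fell too (log2 change -0.29).

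Higher loci had hosts that rose in the following examples. Gm43430, at chr3:135650670-135654566 inside Nfkb1, rose from 3.29 ± 0.57 to 26.3 ± 1.12 CPM (8.0-fold, host 1.97-fold). Gm37498, at chr3:50400282-50404283 inside the cystine transporter gene Slc7a11, rose 9.88-fold and its host 2.91-fold. Gm45266, at chr8:27168840-27171012 inside Rab11fip1, rose 10.7-fold and its host 4.54-fold. In these pairs the locus moved more than the host in the same direction. Since the loci were taken for a change of at least 2-fold, that order is partly fixed by the choice. Whether the counting used strand is not given in the sources used here, so reads of a locus, of unspliced host RNA and of antisense RNA cannot be told apart.

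**Figure D5:**
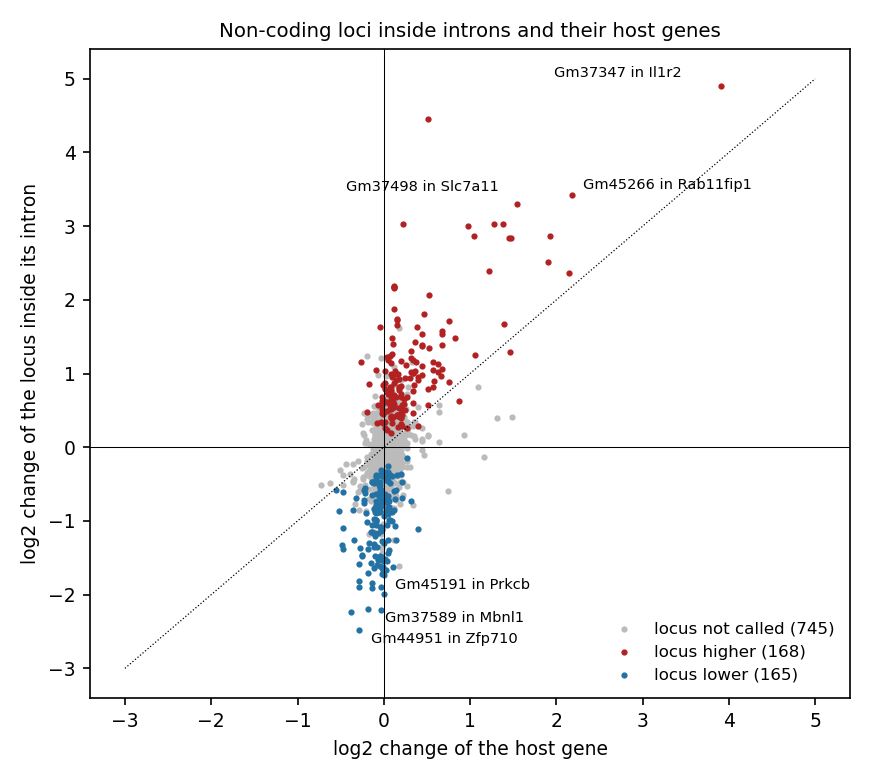
Log2 change at 60 min against 0 min of non-coding loci inside introns (vertical axis) by that of their host gene (horizontal axis), red for the 168 higher, blue for the 165 lower and grey for the 745 uncalled loci, with a dotted line of equal change. Red loci sit mostly right of 0, whereas blue loci stand in a column around 0, with 26 of their 133 distinct hosts called lower.

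The authors' deposited table of their own comparison of 60 with 0 min listed 1490 genes higher and 1168 lower at an adjusted p under 0.05. Of the genes called in the fit here, 1470 and 1153 were called in the same direction in the authors' deposited table, and 0 in the opposite direction.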

How the data were processed

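Each library gave 1 column of expected counts per gene, which the authors deposited as RSEM made them, and 5.04 to 5.32% of the values per library were not whole. The submitters' processing notes name, with no order, RSEM 1.3.1, the aligner STAR 2.7.0f, cutadapt 1.18 for trimming, bcl2fastq 2.20, Picard 2.18.26 and DESeq2. The strand setting is not given in the sources used here. The authors also deposited DESeq2 tables with log2 fold changes and adjusted p-values. Gene models were taken from GENCODE M21 (GRCm38), which matched 55450 of 55450 identifiers.

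Counts were rounded, filtered (filterByExpr, minimum count 10), TMM-scaled and tested with edgeR 4.0.16 (R 4.3.3; quasi-likelihood test, 9 libraries, contrast of 60 against 0 min, Benjamini-Hochberg). Common dispersion was 0.0027, a coefficient of variation of 5.2%. The procedure was also run on simulated counts in which every gene had the common dispersion, so that run does not test the calls made here. Alternatives used DESeq2 1.42.0, limma-voom (3.58.1), other scalings and filters, fewer libraries and a replicate block.

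The members and gene lists were chosen with earlier results of these data known. Genes were named by fixed numbers per list and over all genes: the largest called changes, members against their list's trend and abundant uncalled members. Outside that rule, Atf3, Bcl2l11, Bcl3, Ccl2, Ccl3, Cd40, Cd83, Cflar, Csf1, Csrnp1, Dusp4, Icam1, Id2, Ier3, Il1rn, Jun, Lif, Nr4a1, Osm, Rela, Slc7a11, Sod2, Tnip3, H2-Q6, H2-Q7, Gm37488, Gm43430, Prkcb, Zfp710 and Pet117 were chosen after their values were seen. Biological replication rests on the labels, and p-values measure the spread between these libraries.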

Additional observations from a re-analysis of the deposited data

How the results depend on the processing

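The number of genes higher at 60 min lay between 1313 (library totals only) and 2117 (no filter on low counts) over the scalings, tools and filters, against 1891. With library totals only, 3049 genes were lower instead of 1671. At a minimum count of 50, which tests fewer low genes, 76 instead of 178 were at least 2-fold lower. Without each library in turn, between 1454 and 1773 genes were higher, between 1292 and 1587 lower, between 412 and 431 at least 2-fold higher and between 163 and 193 at least 2-fold lower. Of the 302 called genes picked for naming, 268 kept their call in every alternative that gave them a value. Another 34 lost it in at least 1, and 0 changed direction. Of 77 uncalled genes picked for naming, 21 gained a call in at least 1. Of 1148 list counts under alternatives 1048 stayed within 1.5 times the reported count.

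The labels number the libraries of both times from 1 to 3. Deviations of same-numbered libraries from their group means had correlations of -0.111, 0.028 and -0.055 over 12979 genes. Differently numbered ones lay between -0.06 and 0.12. With 3 libraries per time these values cannot decide whether the numbers pair the libraries. With the replicate block 1720 genes were higher and 1513 lower, and 418 and 162 were at least 2-fold higher and lower.

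Depth limits the low end: Ifnb1, Cxcl1 and Il12b had at most 8 counts over the 60 min libraries and were not tested.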

Other observations

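Genes of the basic machinery of the cell were also listed. Of 25 nuclear genes of the respiratory chain 0 were called by edgeR and 3 passed an unadjusted p under 0.05. Of 24 tested lysosomal genes 3 were higher (12.5%, against 13.3% of all genes) and 0 lower. The protease Ctsc led the higher ones (log2 change 0.37), and 1 member was lower without 60 min replicate 3. Of 25 ribosome biogenesis genes 5 were higher (20.0%, against 13.3% of all genes) and 2 lower (8.0%, against 11.7%). Rrs1, an assembly factor, was the farthest (0.71). The higher ones numbered 2 without replicate 1 of either time and 3 without 60 min replicate 2 or 3. Of 79 ribosomal protein genes 14 were higher and 0 lower, but 1 and 3 with library totals only, so no direction can be given for them.

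Chromatin and transcription genes each had a single strong riser. Kdm6b, a demethylase of histone H3 lysine 27, went from 31.98, 34.5 and 31.99 CPM to 178, 172 and 175 CPM, 5.33-fold. In its list 5 of 31 members were higher (16.1%) and 3 lower (9.68%), near the 13.3% and 11.7% of all genes. Leaving out 0 min replicate 3 or any 60 min library left 3 higher, and with library totals only 2 were higher and 9 lower. Of the elongation and Mediator genes 8 of 30 tested were higher (26.7%) and 2 lower (6.67%), with Ell2, a subunit of the super elongation complex, at 2.32-fold. There 1 was lower without replicate 1 of either time. In the circadian list 4 of 14 tested were higher (28.6%) and 3 lower (21.4%). Nfil3, a repressor that binds D-box elements, rose 2.55-fold from 13.1 ± 1.82 CPM. The 3 lower members, Nr1d1, Dbp and Tef, numbered 0 without 0 min replicate 2 and 1 without 0 min replicate 1 or 60 min replicate 1 or 2.

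Of 23 tested snoRNA host and long non-coding genes 9 were higher and 4 lower, where 13.3% and 11.7% of all genes were. Mir155hg passed the filter only through its level after LPS, so this count does not describe all listed members. The lower ones included the snoRNA hosts Snhg5 (-0.42), Gas5 (-0.35) and Zfas1 (-0.30) on the log2 scale.

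Pet117, a mitochondrial assembly gene, had 1.03, 5.27 and 0 CPM at 0 min and 0 CPM in all 3 libraries at 60 min. Its groups overlap, and edgeR's adjusted p of 0.0201 was 0.116 with DESeq2, 0.146 with limma-voom, 0.0966 without 0 min replicate 2, 0.05 without 60 min replicate 1 and 0.0525 without 60 min replicate 2.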
